A study of Arabidopsis thaliana with 11 samples.

Results

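The genes described here are the FLC clade of Arabidopsis thaliana and the floral transition genes that act with it. They were chosen by locus: FLC (AT5G10140), FLM (AT1G77080, also named MAF1), MAF2 (AT5G65050), MAF3 (AT5G65060), MAF4 (AT5G65070), MAF5 (AT5G65080), FRI (AT4G00650), SVP (AT2G22540), SOC1 (AT2G45660) and FT (AT1G65480). All 10 loci were on the array, with 19 features between them, out of 37118 features of 32627 loci. A feature is a set of 3 or 4 probes with a summarised intensity, and a gene can have several. The features are called here by the number the array gives them, as in FLC feature 1.

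Total RNA was measured on 11 single-colour NimbleGen arrays, 5 labelled as the atpme3-1 loss-of-function mutant and 6 of wild type, both in the Columbia ecotype. All samples were hypocotyls, the embryonic stems of seedlings, 96 h old and grown in the dark for 4 days after 3 days at 4 °C and 6 h of white light at 20 °C. The labels describe the replicates as biological and collected separately, with about 300 hypocotyls in each. Mutant replicates carry the numbers 1, 2, 3, 5 and 6. PME3, a pectin methylesterase of the cell wall and the gene the mutant is named for, was 1.52-fold higher on the arrays labelled mutant (14.41 ± 0.02 against 13.81 ± 0.06 in wild type, log2 mean ± SD, n = 5 and 6; limma adjusted p = 4.91e-07), which goes against the label as far as its probes report it. Where the insertion lies was not stated, so these arrays are called labelled mutant throughout, and each direction below rests on that label. PORA, a chlorophyll synthesis gene typical of dark-grown tissue, had a log2 intensity of 14.96 ± 0.11 on arrays labelled mutant and 15.02 ± 0.17 in wild type. Some other markers of dark-grown seedlings did differ between the groups and are given beside the FLC values. The shoot meristem genes WUS and CLV3 lay in the dimmest 25% of all features.

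The second principal component (12.5% of the variance) set wild-type replicates 2 and 5 apart from 3 and 6, and wild-type arrays whose numbers lie 3 apart deviated together from the group mean (correlations of 0.18 to 0.69 over all features, against at most 0.04 for other wild-type arrays). The image names number the arrays, with the labelled mutant at even and wild type at odd numbers. What these numbers stand for was not stated, and even or odd number and group cannot be told apart. Root hair and maturing seed transcripts differed strongly between the groups and are given beside the FLC values. In whole hypocotyls, fewer cells of a type and less RNA per cell cannot be told apart.

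FLC encodes a MADS-box protein that represses flowering. FLM and MAF2 to MAF5 are its closest relatives and act as repressors too, and SVP is a MADS-box partner with which FLC and FLM bind DNA. FRI raises FLC transcription, but the Columbia accession is known to carry a loss-of-function FRI allele, and prolonged cold silences FLC through Polycomb proteins. FLC and SVP repress SOC1, a MADS-box activator of flowering, and FT, whose protein moves from leaf phloem to the shoot apex as the flowering signal. FLC transcription is reset to an active state in the embryo.

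On arrays labelled mutant FLC and both of the genes it is known to repress, FT and SOC1, were higher. FT rose by 1.09 ± 0.10 on the log2 scale (moderated SE), SOC1 by 0.66 ± 0.17 and the 3 FLC features by 0.87 ± 0.28, 0.93 ± 0.29 and 1.28 ± 0.24. MAF2 feature 2 rose by 0.60 ± 0.10, and changes in the other members that passed were smaller than 0.30 in either direction. Past a limma adjusted p of 0.05, 10 of the 19 features were higher (52.6%, against 18.8% of all features) and 2 were lower (10.5%, against 13.6% of all features); in either direction 32.4% of all features passed. Leaving out 1 array in turn gave 6 to 9 higher and 2 lower member features, beside 5124 to 7086 and 4225 to 5010 over the whole array. By gene, 7 of the 10 had a higher feature, 2 had a lower feature, FLM had both, and MAF3 and MAF5 had neither. Genes with several features had more chances to pass in that count. With the features of a gene averaged, 5 of the 10 were higher and 1 lower. Of all genes, with 1 feature standing for each, 19.4% were higher and 13.1% lower. With a fold of at least 1.5 as well, 6 features were higher (3.41% of all features were) and 0 lower (5.01% of all features were), with 8.41% of all features in either direction. The groups did not overlap for 4 higher features, FLC feature 3, FLM feature 4, MAF2 feature 2 and FT (10.3% of all features), and for 1 lower feature, SVP feature 2 (9.35% of all features, and 19.6% in either direction). The median log2 fold change was 0.22 over the 19 features and 0.04 over all features. Features of 1 gene share their transcript and are not independent counts.

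**Figure D1:**
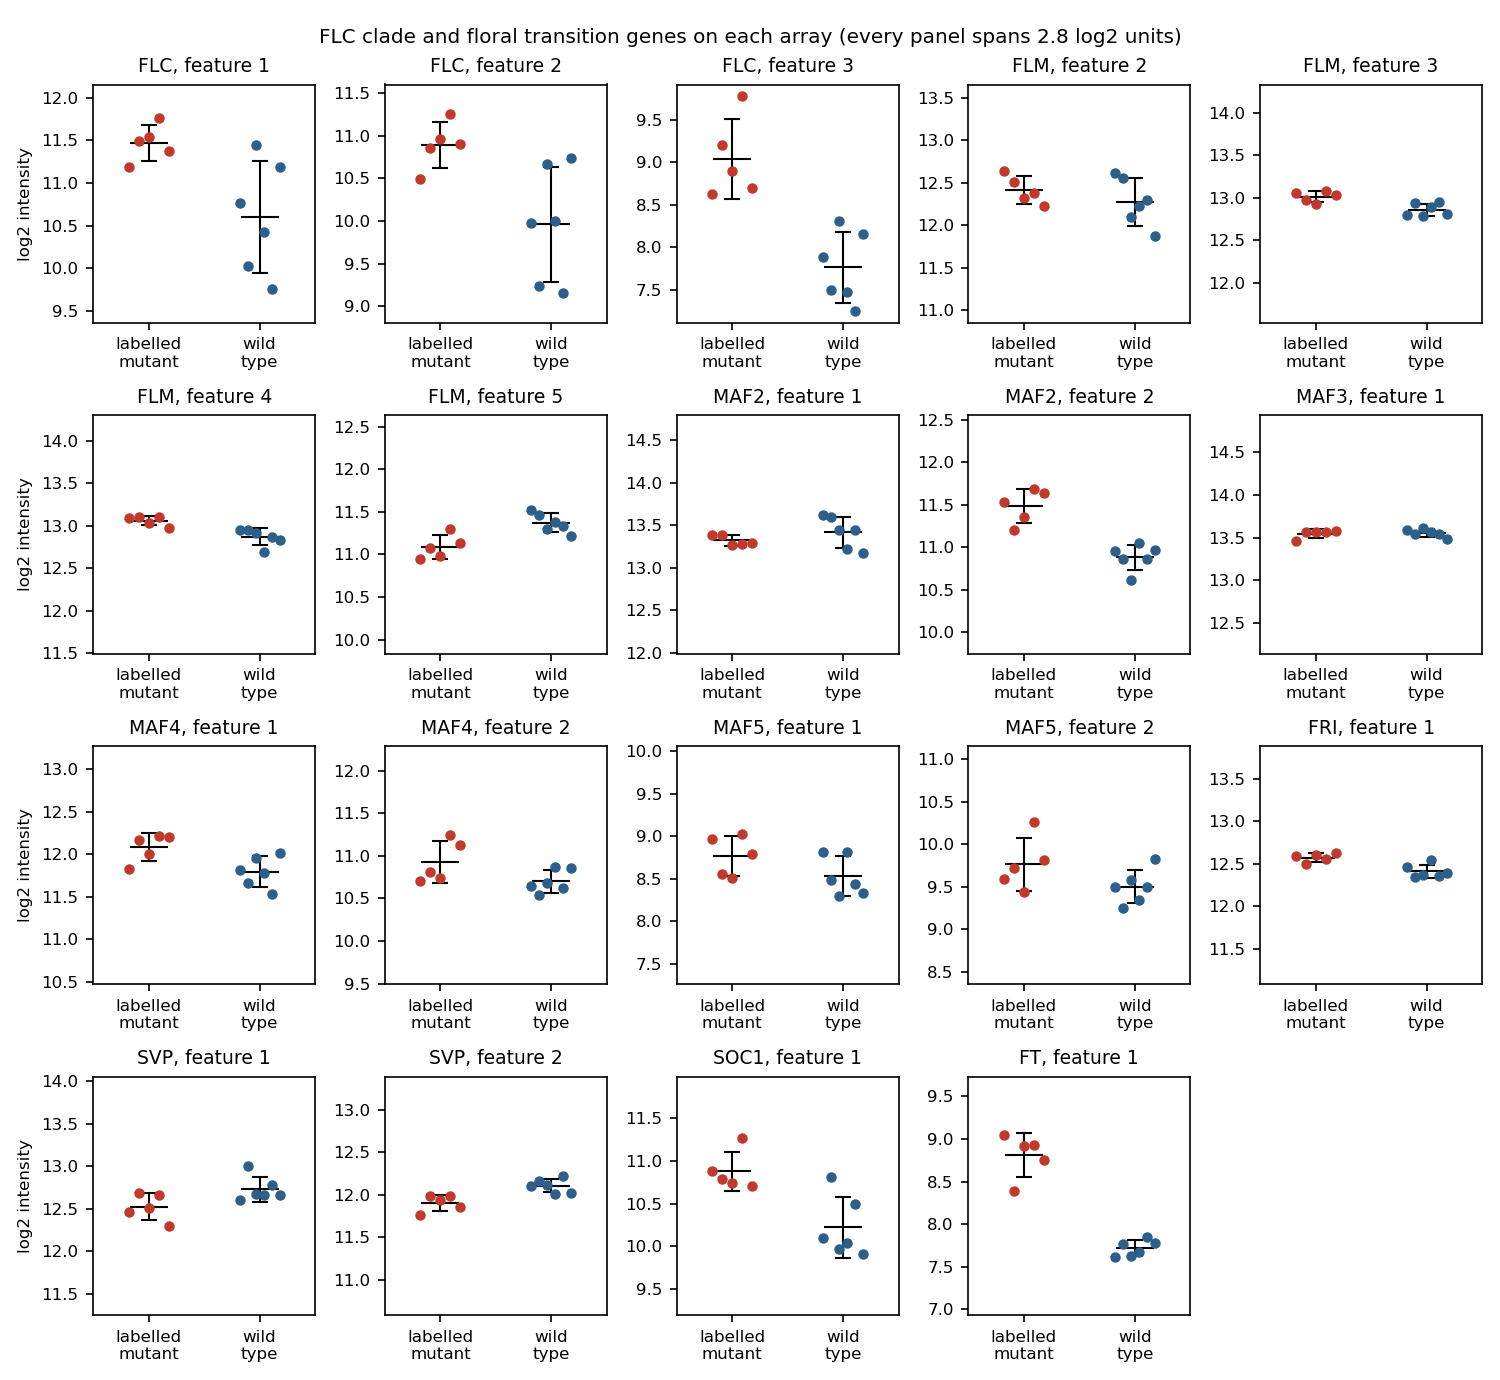
Log2 intensity of each of the 19 features on every array, with 5 arrays labelled mutant on the left and 6 wild-type arrays on the right of each panel; points are arrays, bars the mean ± SD, and each panel spans the same log2 range. FT, FLC feature 3 and MAF2 feature 2 show groups that do not overlap, while FLC features 1 and 2 show a wide spread among wild-type arrays.

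**Figure D2:**
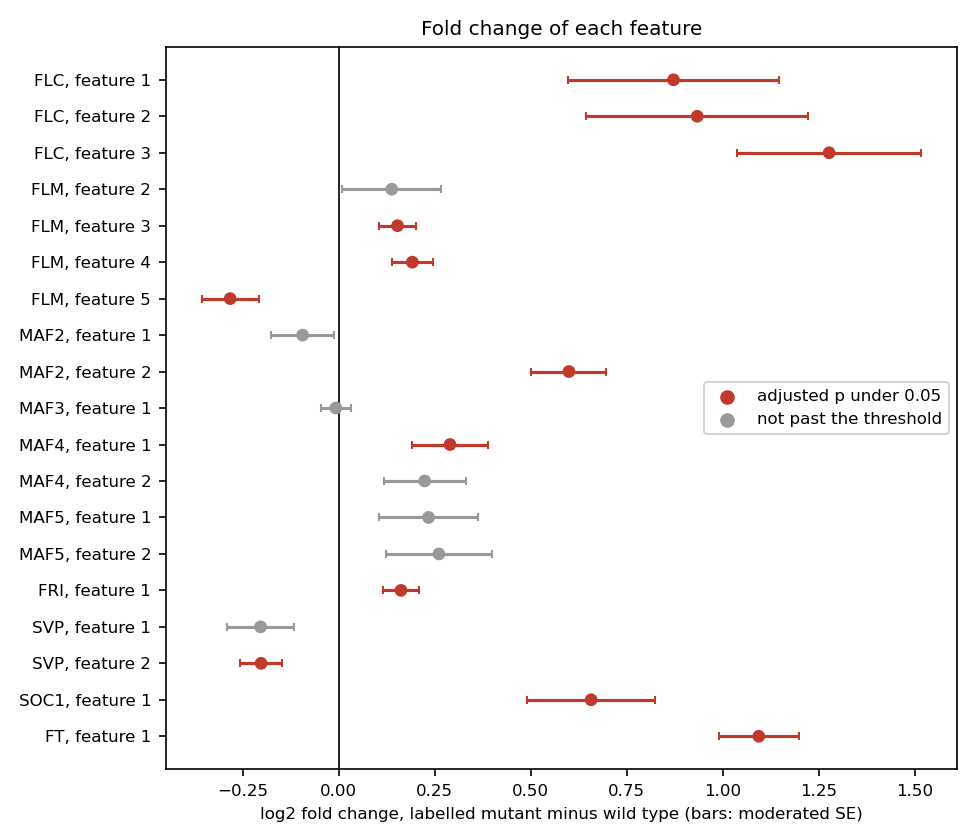
Log2 fold change (labelled mutant minus wild type) of each feature with its moderated SE; red points passed an adjusted p of 0.05 over all features and grey points did not. FT, SOC1, the 3 FLC features and MAF2 feature 2 lie above 0.58, whereas FLM feature 5 and both SVP features lie below 0.

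FRI, the activator upstream of FLC, differed little. Its feature had log2 intensities of 12.58, 12.49, 12.60, 12.55 and 12.63 on arrays labelled mutant, against a lowest value of 12.34, a median of 12.38 and a highest value of 12.54 in wild type. All labelled mutant values except that of replicate 2 lay above all wild-type values. The log2 fold change was 0.16 ± 0.05 (adjusted p = 0.0215), and the call was lost without labelled mutant replicate 3 (adjusted p = 0.0502), without wild-type replicates 2 and 5 together (0.13, adjusted p = 0.0910) or 3 and 6 together (0.15, adjusted p = 0.0671), and with arrays 3 numbers apart averaged (0.16, adjusted p = 0.106). AT4G00651, a locus that overlaps FRI in the TAIR10.1 table, had a fold change of 0.01 ± 0.13 (adjusted p = 0.975).

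FLC was higher on arrays labelled mutant in all 3 features, but its wild-type levels varied widely. FLC feature 1 read 11.18, 11.49, 11.55, 11.76 and 11.37 on labelled mutant replicates 1, 2, 3, 5 and 6. In wild type it read 10.77, 10.02, 11.45, 10.42, 9.75 and 11.18 on replicates 1 to 6. The labelled mutant arrays lay close together at the upper end, wild-type replicate 3 fell within their range and replicate 6 at its lower edge, and wild-type replicates 2 and 5 were lowest. The SD was 0.21 on arrays labelled mutant and 0.66 in wild type. The log2 fold change of 0.87 ± 0.28 had an adjusted p of 0.0316. It was 0.52 ± 0.20 (adjusted p = 0.0809) without wild-type replicates 2 and 5 and 1.23 ± 0.19 (adjusted p = 0.00129) without wild-type replicates 3 and 6.

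FLC feature 2 repeated this arrangement. It read 10.50, 10.86, 10.97, 11.26 and 10.90 on arrays labelled mutant and 9.98, 9.24, 10.67, 9.996, 9.15 and 10.74 in wild type, where replicates 2 and 5 were again lowest and 3 and 6 highest. The fold change was 0.93 ± 0.29 (adjusted p = 0.0287). It was 0.55 ± 0.20 (adjusted p = 0.0678) without wild-type replicates 2 and 5, and 1.31 ± 0.21 without wild-type replicates 3 and 6.

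FLC feature 3, the dimmest of the 3, separated the groups. It read 8.63, 9.21, 8.90, 9.78 and 8.69 on arrays labelled mutant and 7.89, 7.49, 8.31, 7.47, 7.25 and 8.16 in wild type, so that the lowest labelled mutant array lay above the highest wild-type array. The fold change of 1.28 ± 0.24 (adjusted p = 0.00204) passed without any single array (adjusted p up to 0.00676), without wild-type replicates 2 and 5 (1.08, adjusted p = 0.0107) and with arrays 3 numbers apart averaged (1.21, adjusted p = 0.0375). Under that averaging features 1 and 2 kept fold changes of 0.82 and 0.87 but did not pass (adjusted p = 0.144 and 0.152). The calls of both were also lost without labelled mutant replicate 2, 3 or 5 or without wild-type replicate 2 or 5, and that of feature 1 without wild-type replicate 4 (adjusted p up to 0.0698). With the 3 features averaged, FLC changed by 1.03 ± 0.26 (adjusted p = 0.0108). A locus known as a long noncoding RNA, AT5G01675, overlaps FLC in the TAIR10.1 table and has no feature of its own. The strand that the probes report is not given in the sources used here.

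Seed transcripts moved with FLC between the groups and within wild type, but not among arrays labelled mutant. Among those, the mean of the seed markers relative to wild type was highest on replicate 6 (2.22) and lowest on replicate 2 (1.93). FLC feature 1 was highest there on replicate 5 (11.76) and lowest on replicate 1 (11.18). All 6 maturing seed markers rose, among them GEA6 (2.48 ± 0.15) and M10 (1.87 ± 0.11), with a summed intensity of 61781 to 73017 on arrays labelled mutant and 12220 to 21242 in wild type. Relative to the wild-type mean, the seed list mean was 1.93 to 2.22 on arrays labelled mutant, 0.30 and 0.32 on wild-type replicates 6 and 3, and -0.35 and -0.55 on wild-type replicates 2 and 5. Root hair markers ran the opposite way, with 8 of 8 lower, RHS12 (-3.35) and RSL4 (-2.25) among them, a summed intensity of 5894 to 25548 on arrays labelled mutant and 42974 to 76002 in wild type, and the highest wild-type list means on replicates 2 and 5 (0.56 and 0.54). Of 9 cotyledon and green tissue markers 2 were higher and 0 lower (22.2% called, against 32.5% of all genes; summed intensity 143755 to 156159 on arrays labelled mutant and 139114 to 168540 in wild type). Of 5 markers of dark-grown seedlings 2 were higher and 1 lower (60.0% called, against 32.5% of all genes). Their summed intensity was 87849 to 101056 on arrays labelled mutant and 74241 to 95749 in wild type. PIL1 (1.01 ± 0.27) and ATHB2 (1.05 ± 0.35) were higher and IAA19 (-0.22 ± 0.06) was lower. The ATHB2 call was lost in 9 of the 11 fits that left out 1 array. The lowest intensity of any feature was 95.7 to 99.8 per array, so no marker could read 0, and detection of these tissues was not assessed. The part of these tissues in the FLC difference was not tested.

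**Figure D3:**
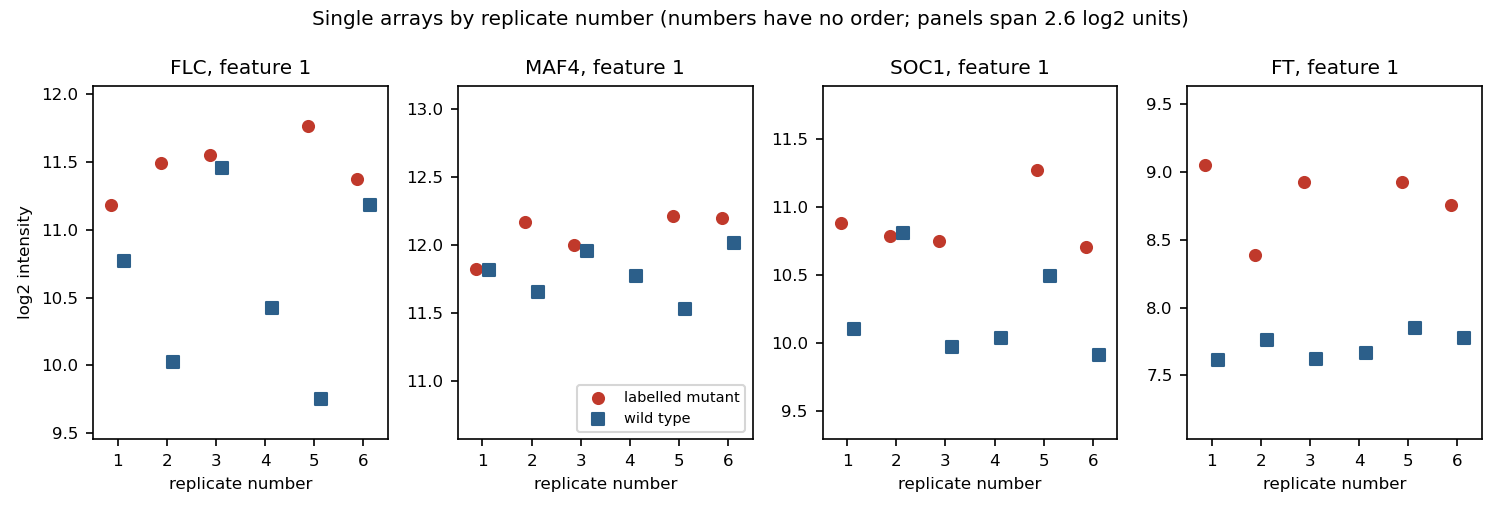
Log2 intensity of 4 features on each array by replicate number, with arrays labelled mutant as circles to the left of wild-type squares; the numbers are names without order. Among wild-type arrays FLC feature 1 and MAF4 feature 1 are lowest on replicates 2 and 5, SOC1 is highest on the same arrays, and FT stays between 7.61 and 7.85.

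FLM, a repressor known for temperature-dependent splicing, differed between its features. FLM feature 5 was lower, with 10.95, 11.07, 10.98, 11.30 and 11.14 on arrays labelled mutant, against a lowest value of 11.22, a median of 11.36 and a highest value of 11.52 in wild type; 4 of the 5 labelled mutant arrays lay below all wild-type arrays. Its fold change was -0.28 ± 0.07 (adjusted p = 0.0136). FLM feature 4 was higher, with 13.09, 13.10, 13.03, 13.11 and 12.98 on arrays labelled mutant, against a lowest value of 12.69, a median of 12.89 and a highest value of 12.96 in wild type, without overlap. Its fold change was 0.19 ± 0.05 (adjusted p = 0.0190). FLM feature 3 changed by 0.15 ± 0.05 (adjusted p = 0.0286), a call lost without labelled mutant replicate 1, 5 or 6 or wild-type replicate 1, 3 or 6 (adjusted p up to 0.0696), and feature 2 by 0.14 ± 0.13 (adjusted p = 0.438). With arrays 3 numbers apart averaged, features 3, 4 and 5 had adjusted p of 0.0974, 0.0516 and 0.0518.

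The disagreement within FLM was tested on the difference between features, in a limma fit over all 5676 pairs of features that share a locus. Of all those pairs 32.8% passed, and of the 13 pairs from members 4 passed, a share close to that. The 4 were the FLM pairs with feature 5 and the MAF2 pair. Feature 4 minus feature 5 was 1.98 ± 0.15 on arrays labelled mutant and 1.5 ± 0.12 in wild type (mean ± SD), a change of 0.47 ± 0.08 (adjusted p = 6.56e-04). Feature 3 minus feature 5 changed by 0.44 ± 0.07 (adjusted p = 7.59e-04) and feature 2 minus feature 5 by 0.42 ± 0.12 (adjusted p = 0.0150). Which part of the transcript each feature reads is not known here, so no splice form can be named. Averaged over its 4 features, FLM changed by 0.05 ± 0.06 (adjusted p = 0.550).

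The 4 other clade members, MAF2 to MAF5, stand side by side by locus number, and 1 of their 7 features changed by over 1.5-fold. MAF2 is a repressor known to keep plants from flowering after short cold spells. MAF2 feature 2 read 11.53, 11.20, 11.36, 11.69 and 11.64 on arrays labelled mutant, against a lowest value of 10.62, a median of 10.91 and a highest value of 11.04 in wild type, without overlap. It rose by 0.60 ± 0.10 (adjusted p = 7.96e-04). MAF2 feature 1 was nearly level, with 13.32 ± 0.06 on arrays labelled mutant and 13.41 ± 0.19 in wild type (log2 mean ± SD), a change of -0.09 ± 0.08 (adjusted p = 0.405). Feature 1 minus feature 2 was smaller on arrays labelled mutant (1.84 ± 0.23) than in wild type (2.53 ± 0.28), by -0.69 ± 0.14 (adjusted p = 0.00259).

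MAF3 gave the smallest difference of all members, -0.01 ± 0.04 (adjusted p = 0.895), with 13.46 to 13.57 on arrays labelled mutant and 13.48 to 13.61 in wild type. MAF4 feature 1 read 11.83, 12.17, 12.00, 12.22 and 12.20 on arrays labelled mutant and 11.82, 11.66, 11.96, 11.77, 11.53 and 12.02 in wild type. As for FLC, wild-type replicates 2 and 5 were lowest and 3 and 6 highest. The fold change of 0.29 ± 0.10 (adjusted p = 0.0432) was lost without labelled mutant replicate 2, 3, 5 or 6 or wild-type replicate 1, 2, 4 or 5 (adjusted p up to 0.0950), and it was 0.19 (adjusted p = 0.154) without wild-type replicates 2 and 5 together. MAF4 feature 2 (0.22 ± 0.11, adjusted p = 0.127) and the MAF5 features (0.23 ± 0.13 and 0.26 ± 0.14, adjusted p = 0.180 and 0.170) did not pass. Without probe sequences, cross-hybridisation among these related genes was not checked.

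SVP was lower by a small amount. SVP feature 2 read 11.76, 11.99, 11.94, 11.98 and 11.86 on arrays labelled mutant, against a lowest value of 12.01, a median of 12.11 and a highest value of 12.22 in wild type. The groups did not overlap, but the gap between them was small beside the spread within each. The fold change was -0.20 ± 0.06 (adjusted p = 0.0168), or -0.16 (adjusted p = 0.0728) without wild-type replicates 2 and 5 and -0.23 (adjusted p = 0.0833) with arrays 3 numbers apart averaged. SVP feature 1 had the same fold change, -0.20 ± 0.09, and did not pass (adjusted p = 0.0931). On feature 1 the wild-type maximum, 13.01, was that of replicate 2.

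SOC1 was higher on arrays labelled mutant, and its pattern within wild type was the reverse of that of FLC. SOC1 read 10.88, 10.78, 10.75, 11.27 and 10.70 on labelled mutant replicates 1, 2, 3, 5 and 6. In wild type it read 10.10, 10.81, 9.97, 10.04, 10.49 and 9.91 on replicates 1 to 6. Wild-type replicates 2 and 5, lowest in FLC features 1 and 2, were highest in SOC1, and replicates 3 and 6, highest in all FLC features, were lowest in SOC1. Several lists shared this contrast of wild-type replicates, which the second principal component also showed. Relative to the wild-type mean, the green tissue list mean was 0.26 and 0.40 on replicates 2 and 5 and -0.23 and -0.24 on replicates 3 and 6. The phloem list mean was 0.16 on both replicates 2 and 5 and -0.14 and -0.18 on replicates 3 and 6. For a list of 10 further FT repressors it was 0.19 and 0.13 against -0.18 and -0.26. Other lists, among them seed, shoot meristem and dark-grown seedling markers, were lower on replicates 2 and 5 than on 3 and 6. The part of any of these lists in the SOC1 pattern was not tested. Among arrays labelled mutant, replicate 5 was highest in both SOC1 and FLC, and replicate 1 was lowest in all 3 FLC features and second highest in SOC1. The SOC1 fold change of 0.66 ± 0.17 (adjusted p = 0.0113) passed without any single array (adjusted p up to 0.0275). It was 0.87 ± 0.11 (adjusted p = 3.44e-04) without wild-type replicates 2 and 5, 0.52 ± 0.17 (adjusted p = 0.0421) without wild-type replicates 3 and 6, and 0.66 (adjusted p = 0.0611) with arrays 3 numbers apart averaged.

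FT showed the clearest separation of the members. It read 9.05, 8.39, 8.92, 8.93 and 8.76 on arrays labelled mutant, against a lowest value of 7.61, a median of 7.72 and a highest value of 7.85 in wild type. The fold change of 1.09 ± 0.10 (2.14-fold, adjusted p = 1.23e-05) lay between 1.03 and 1.20 in every alternative run here, and its largest adjusted p was 0.00184. The lowest array labelled mutant, replicate 2, still lay above the highest wild-type array, replicate 5. All FT values lay below 9.18, the upper bound of the dimmest 25% of features by log2 mean, and no detection calls were used here. Phloem companion cell markers, which mark the cells FT is known from, had 0 of 4 past the threshold, against 32.5% of all genes. Their summed intensity was 41618 to 46108 on arrays labelled mutant and 39523 to 48584 in wild type. Shoot apical meristem markers had 2 of 6 higher and 0 lower (33.3% called, close to the 32.5% of all genes), with sums of 39066 to 41238 on arrays labelled mutant and 34028 to 36420 in wild type. These were STM, which maintains the meristem (0.83 ± 0.11, adjusted p = 2.14e-04), and CLV1 (0.17 ± 0.05). Their part in the FT and SOC1 differences was not tested.

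Other flowering genes were read from 7 lists of 74 genes, with the brightest feature standing for each gene. Of the 74, 13 were higher and 12 lower (33.8% called), against 19.4% higher and 13.1% lower of all genes (32.5% called). The median log2 fold change was 0.03 over the 74 genes and 0.05 over all genes. None of the 13 rises and 5 of the 12 falls reached 1.5-fold; of all features, 3.41% were higher and 5.01% lower past that fold.

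Among genes that set FLC transcription the share called was 18.8% of the 16 FLC activation genes, 12.5% of the 8 autonomous pathway genes and 33.3% of the 9 vernalization and Polycomb genes, against 32.5% of all genes. In FLC activation FLX (0.22 ± 0.05, adjusted p = 0.00391), which works with FRI, and ARP6 (0.15 ± 0.05), a chromatin remodelling subunit, were higher and VIP4 (-0.12 ± 0.04), of the PAF1 complex, was lower. The ARP6 and VIP4 calls were each lost in 7 of the 11 fits that left out 1 array. Of the autonomous pathway genes, which lower FLC, FVE alone passed (0.15 ± 0.04). Of the vernalization and Polycomb genes VEL1 (0.22 ± 0.05) and VRN1 (0.11 ± 0.03) were higher and VRN2 (-0.25 ± 0.05) lower, the VRN1 call being lost in 6 of those 11 fits. Among 10 further repressors of FT, the AP2-like gene TOE2 was higher (0.18 ± 0.05, lost in 2 of those fits) and the MADS-box genes AGL15 (-0.46 ± 0.10) and AGL18 (-0.22 ± 0.05) were lower.

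Of the 7 photoperiod genes 4 were lower and 1 higher (71.4% called). Of all genes 13.1% were lower and 19.4% higher (32.5% called). CDF1 (-0.97 ± 0.10, adjusted p = 3.52e-05), CDF5 (-0.66 ± 0.09, adjusted p = 1.59e-04) and CDF3 (-0.26 ± 0.08), which encode DOF repressors of CO and FT, and GI (-0.75 ± 0.12), a clock-controlled activator of CO, were lower. CO, the activator of FT in long days, was higher (0.24 ± 0.06, adjusted p = 0.00897). CDF1 had 11.50 to 11.93 on arrays labelled mutant and 12.44 to 12.92 in wild type, without overlap. CO had 11.41 to 11.61 on arrays labelled mutant and 11.15 to 11.43 in wild type, with a small overlap.

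FT and its closest relative TSF, also a flowering activator, changed in opposite directions. TSF read 7.58, 7.62, 7.66, 7.55 and 7.51 on arrays labelled mutant and 8.79, 8.80, 8.66, 8.71, 8.65 and 8.69 in wild type. Its spread within either group was small beside the gap, and it fell by 1.14 ± 0.05 on the log2 scale (adjusted p = 9.68e-09). Both FT and TSF lie in the dimmest 25% of features, and cross-hybridisation between them was not checked. Of the 7 genes of the FT family with FD, TFL1, a repressor of flowering (0.40 ± 0.07), and FDP (0.33 ± 0.09) were also higher, and FD, the bZIP partner of FT (-0.34 ± 0.08), and ATC (-0.25 ± 0.09) were lower.

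Other floral integrator and meristem identity genes were largely dim. Of these 17 genes 12 lay in the dimmest 25% of features. AGL42 (0.46 ± 0.09, adjusted p = 0.00202), a SOC1 relative, AP1 (0.35 ± 0.09), SPL5 (0.39) and AGL71 (0.13) were higher, and AGL12 (-1.14 ± 0.24, adjusted p = 0.00369), known from roots, was lower. LFY, the meristem identity factor, did not pass (-0.14 ± 0.12, adjusted p = 0.363).

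**Figure D4:**
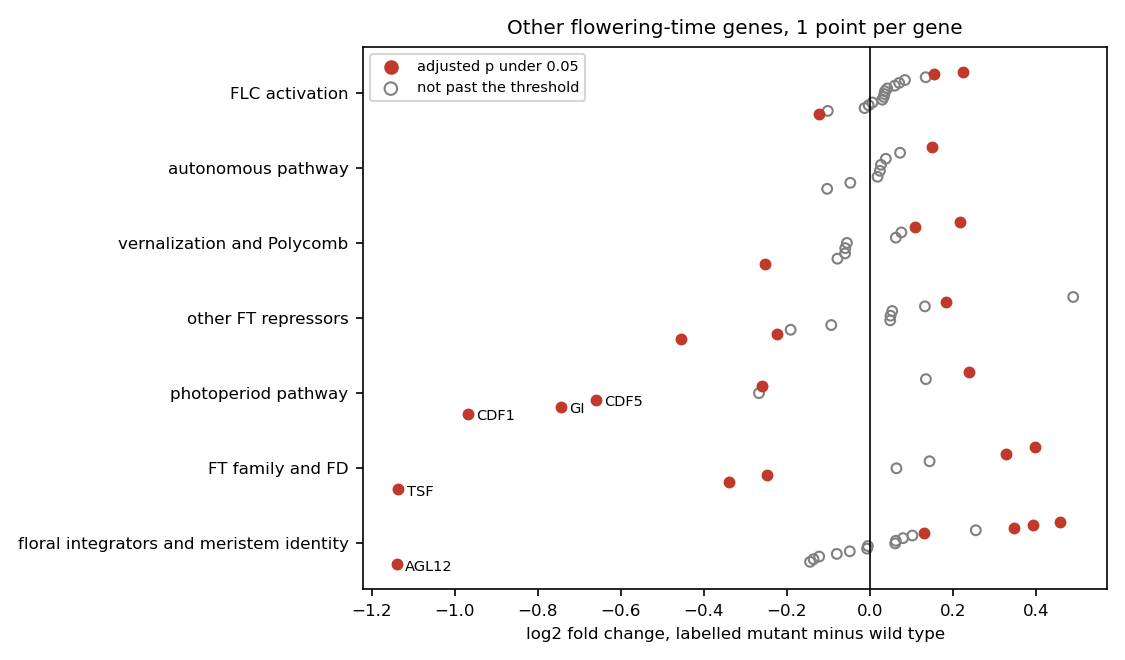
Log2 fold change (labelled mutant minus wild type) of 74 other flowering genes by list, 1 point per gene; filled red points passed an adjusted p of 0.05 over all features and open points did not. CDF1, GI, CDF5, TSF and AGL12 lie farthest below 0, and no called gene lies above 0.46.

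Likeness was measured as the root mean square (RMS) difference between 2 features in their deviations from their own means over the 11 arrays. BBX23 (AT4G10240) was closest to FLC feature 1 (0.17) and to FLC feature 2 (0.19), against a median of 0.63 and 0.67 over all other features. AT1G53542 and AT4G33980 followed for feature 1 (0.21 and 0.22), and AT1G17540 and FLA5 for feature 2 (0.23 and 0.24). The features closest to FLC feature 3 were AT5G66780 (0.20), AT5G45630 (0.22) and the heat shock gene HSP23.6-MITO (0.22). For SOC1 they were AT5G44400 (0.09), GATA23 (0.12) and IQD24 (0.12), against a median of 0.44. For FT they were AT1G63630, AT4G37220 and AT1G43260 (0.15 each), and for MAF2 feature 2 they were AT1G76720, LOX4 and AT3G29639 (0.10 to 0.11). Each median lay near the feature's own SD over the arrays (0.635 and 0.672 for FLC features 1 and 2). The closest of all features lies below it by selection, so no particular likeness follows from these values.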

How the data were processed

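Each feature has a linear intensity per array that the authors made with RMA, a tool listed in the submitters' processing notes. Its settings, the probe sequences, the genome build and the annotation were not stated there. RMA as generally run equalises array distributions, so each gene is measured relative to the others. Median intensity per array was 3775.6 to 3909.2. The deposited series table held the same values (largest difference 0). Values were log2-transformed and fitted with limma 3.58.1 in R 4.3.3 (lmFit, eBayes) over all 37118 features, without filter or covariate, with Benjamini-Hochberg adjustment and a threshold of 0.05. The number of arrays limits the precision. The fit was tested on simulated arrays with real means and spreads over 37118 features. It found 42% of features changed 1.25-fold and 74% of those changed 1.5-fold, while 86% were found at a 2-fold and 100% at a 4-fold change, and 16 unchanged features were called. The simulated noise was independent between arrays, and 50 features were changed at each fold. Real wild-type arrays deviated together and 12033 features were called, so these rates need not hold for the real data.

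Symbols come from a RefSeq table of TAIR10.1, in which 31993 of 32627 loci and all 10 genes were found; no coordinates are given. Members, lists and tests were chosen with earlier results of these data known. All 10 members were named, with every feature; per list, the 2 higher and 2 lower genes of lowest p; for the 6 features past the threshold and 1.5-fold, the 3 most alike; and neighbours past the threshold and 2-fold. GI, CDF3, ATC, SPL5, AGL71 and LFY, WUS, CLV3, PORA and AT4G00651 were named after their values were seen. The test of feature pairs was added after the values were seen. Alternatives were other centring, filters, variance models, replicate blocks, averaged features or arrays, thresholds, and arrays left out.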

Additional observations from a re-analysis of the deposited data

Results flagged for a closer look

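Of 106 groups of arrays examined over the named features, 2 held an array far from the rest of its group, and chance alone gives about 1 in 20. For MAF3, labelled mutant replicate 1 read 13.46, below the other 4 arrays of its group, the nearest of which read 13.56; without it the MAF3 fold change was 0.01. For AGL12, labelled mutant replicate 6 read 9.91, above the other 4, the nearest of which read 9.31. On the same array the root hair list mean was -1.52 relative to wild type, against -2.55 to -3.27 on the other arrays labelled mutant.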

How the results depend on the processing

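FT, MAF2 feature 2 and FLC feature 3 passed an adjusted p of 0.05 in every alternative that tested them; none of the 3 was tested without the dimmest 50% of features, nor FT and FLC feature 3 without the dimmest 25%. Under alternatives the counts of higher and lower features were as follows, against 10 and 2 for the members, 6989 and 5044 for the array, 13 and 12 for the pathway genes and 18 and 10 for the neighbours. Without the dimmest 50% of features they were 4 and 1 for the members and 3067 and 2613 for the array, with 6 pathway genes higher and 3 neighbours higher and 5 lower. Without the dimmest 25%, 5 neighbours were higher. Both filters reduce the number of features tested. Member features left were 9 without the dimmest 50% and 16 without the dimmest 25%, and none of them changed its call. With arrays 3 numbers apart averaged they were 3 and 0 for the members and 3938 and 3236 for the array, with 6 pathway genes higher and 5 neighbours lower. This averaging leaves fewer samples. At an adjusted p of 0.01 they were 3 and 0 for the members, 3302 and 3179 for the array and 9 and 6 for the neighbours, with 5 pathway genes higher. With a fold of at least 1.5 they were 6 and 0 for the members, 1264 and 1858 for the array, 0 and 5 for the pathway genes and 2 and 6 for the neighbours. With the features of a gene averaged, 5 members were higher and 1 lower, against 6317 and 4308 genes over the array. Without wild-type replicates 2 and 5, an alternative chosen after seeing the data, 6 member features were higher and 1 lower and 11 neighbours higher. The array counts without those replicates were 5078 and 4483. With arrays 3 numbers apart as a random block, also chosen then, 11 neighbours were higher. Leaving out 1 array gave 6 to 9 higher and 2 lower member features, 5124 to 7086 higher and 4225 to 5010 lower over the array, 10 to 13 and 9 to 13 pathway genes, and 12 to 19 and 8 to 12 neighbours. The near-zero MAF3 change turned positive with median centring (0.008) and ranged between -0.023 and 0.013 with 1 array left out (0.013 without labelled mutant replicate 1 and 0.003 without wild-type replicate 3), and FLM feature 2 turned to -0.01 without wild-type replicates 3 and 6. Deviations of same-numbered arrays correlated at 0.29, -0.06, 0.10, -0.03 and 0.05, and 1 of 5 labelled mutant arrays correlated best with its own number. Same-numbered arrays had adjacent image numbers, such as 1 and 2 for replicate 1. The correlations cannot show whether same-numbered samples were grown or processed together, so a pairing by number remains possible. With the replicate number as a block 6 member features were higher and 2 lower, against 5505 and 4226 over the array. Under that block FLC features 1 and 2 did not pass (limma adjusted p = 0.0916 and 0.071). Other causes were not tested. Signal over background is unknown, which limits the dim features.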

Other observations

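The loci beside the members by locus number were read as well, 5 on each side of each gene, with MAF2 to MAF5 treated as 1 cluster. Of these 70 loci 18 were higher on arrays labelled mutant and 10 lower (40.0% called, against 32.5% of all genes). Without the dimmest 25% of features, a filter that also removes dim loci, 5 were higher and 9 lower. With all features kept, neighbours of the MAF cluster had 4 higher and 2 lower of 10, and those of SVP 5 higher and 0 lower. Those of FT had 4 higher and 1 lower, and those of FLM 3 higher and 1 lower. Neighbours of FLC and of SOC1 had 1 higher and 2 lower each, and those of FRI 0 higher and 2 lower. Past a 2-fold change there were 2. ADF8 (AT4G00680), an actin-depolymerising factor near FRI, had a log2 intensity of 10.52 ± 0.57 on arrays labelled mutant and 12.28 ± 0.48 in wild type (-1.76 ± 0.28, limma adjusted p = 6.84e-04). BST1 (AT5G65090), known from root hair growth and next to MAF5, had 7.98 ± 0.17 on arrays labelled mutant and 9.08 ± 0.81 in wild type (-1.10 ± 0.33, adjusted p = 0.0257), a call lost in 4 of the 11 fits that left out 1 array.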
